A study of Mus musculus with 3 samples.

Results

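The 10 genes described here are the proteases Mmp2, Mmp9, Mmp13, Mmp14, Adamts1, Adamts5 and Htra1 and the inhibitors Timp1, Timp2 and Timp3. They were taken by symbol, all 10 were found, and they are 10 of the 30406 genes listed in all 3 libraries. The cells came from intervertebral discs of untreated mice at postnatal day 30, of the genotype shh-cre:R26R-tdTomato. In such mice Cre acts in cells that use the Shh gene, and the red reporter stays on in those cells and their descendants, which include the nucleus pulposus that forms from the notochord. Lumbar, thoracic and caudal discs were cut out through the bony endplates, digested with collagenase and enriched for red cells by sorting, and transcripts were counted with a droplet 3' kit. There is 1 group of 3 libraries, each a sequencing batch of its own with pooled cells of litter-matched animals, whose sex and number are not given, and the comparisons below are between cell classes within libraries.

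Matrix metalloproteinases cut collagens and other matrix proteins, and are made as inactive precursors. Mmp13 is the main fibrillar collagenase of mouse cartilage and bone, Mmp14 is a collagenase anchored in the cell membrane, Mmp2 and Mmp9 are gelatinases, Adamts1 and Adamts5 cut aggrecan and versican, and Htra1 is a secreted serine protease. The TIMPs are secreted inhibitors that bind the active site of these metalloproteinases, and Timp3 also blocks Adamts proteases and is held in the matrix. Timp2 takes part with Mmp14 in activating the Mmp2 precursor, the Timp1 protein binds the Mmp9 precursor, and Htra1, a serine protease, is not a TIMP target. Breakdown of aggrecan and collagen by such enzymes is a known feature of disc degeneration.

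For the collagenase pair Mmp13 and Mmp14 and the inhibitor Timp1, which were all lower in chondrocyte-like than in osteoblast-like cells below, the 250 bases before the transcription start are shown from RefSeq (build GRCm38.p6, the sequence of mm10), with matches to an AP-1 motif and a RUNX motif in capitals. Of the 10 genes, 7 had an entry in that table, while Mmp2, Mmp9 and Adamts5 did not.
Mmp13, chr9:7272264-7272513, plus strand: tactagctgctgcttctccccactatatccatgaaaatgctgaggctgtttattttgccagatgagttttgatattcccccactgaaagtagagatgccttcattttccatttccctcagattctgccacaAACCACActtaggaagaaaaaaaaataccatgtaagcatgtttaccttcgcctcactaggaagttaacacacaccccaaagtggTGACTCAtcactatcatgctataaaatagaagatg
Mmp14, chr14:54431348-54431597, plus strand: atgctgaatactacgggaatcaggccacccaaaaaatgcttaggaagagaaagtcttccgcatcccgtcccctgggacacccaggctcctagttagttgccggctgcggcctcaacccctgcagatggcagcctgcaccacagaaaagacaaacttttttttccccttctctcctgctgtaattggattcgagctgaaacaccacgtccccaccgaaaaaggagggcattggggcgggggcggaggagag
Timp1, chrX:20869916-20870165, plus strand: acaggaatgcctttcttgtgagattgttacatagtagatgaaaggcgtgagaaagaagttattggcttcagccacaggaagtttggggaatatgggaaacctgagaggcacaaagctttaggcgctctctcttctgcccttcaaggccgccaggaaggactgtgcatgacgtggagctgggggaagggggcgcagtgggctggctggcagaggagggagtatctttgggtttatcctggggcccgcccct
The motifs searched on both strands were TGAGTCA for AP-1, whose other strand reads TGACTCA, and AACCACA for RUNX. The Mmp13 window held 1 of each without overlap, the RUNX letters starting 119 and the AP-1 letters 35 bases before the start. The windows of the other 6 matched genes held 0. Of all 32851 windows of this length, 4.46% held the AP-1 letters and 4.4% the RUNX letters. In the GENCODE vM21 annotation of mm10, Mmp13 lies at chr9:7272514-7283331 and Timp1 at chrX:20870166-20874735. The aggrecanases are neighbours, Adamts1 at chr16:85793827-85803113 and Adamts5 at chr16:85856173-85901828. Htra1 lies at chr7:130936111-130985660, Timp3 at chr10:86300372-86349506 and Mmp9 at chr2:164940780-164955850.

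After filters, 5643, 10312 and 9970 cells were kept in libraries 1, 2 and 3, which is also the order of every triple of values below. Classes were gated cell by cell with fixed marker genes, none of them among the 10, and are named "-like" for that reason. Nucleus pulposus-like cells, with UMIs (unique molecular identifiers, 1 per counted transcript) of at least 3 of Krt8, Krt18, Krt19 and T, numbered 530, 162 and 25. Connective-tissue cells numbered 1142, 668 and 908 and blood and marrow cells 3191, 8353 and 8028. The makeup of the connective tissue differed between libraries, with 779, 226 and 41 chondrocyte-like and 70, 223 and 667 osteoblast-like cells. The median share of mitochondrial UMIs was 0.0685, 2.76 and 0.0822% in nucleus pulposus-like cells and 3.71, 3.52 and 3.12% in connective-tissue cells, and low values mark many nucleus pulposus-like barcodes as poor in this RNA. Libraries 2 and 3 shared 224 barcodes, against 24 for libraries 1 and 2 and 29 for libraries 1 and 3. The 224 had a median of 667.5 UMIs in library 2 and 48192.5 in library 3, and the cause of this sharing was not tested. Leaving out all shared barcodes is among the alternatives. Levels are given as CPM, the UMIs of a gene per 1000000 UMIs of the class in a library. The 3' kit counts 1 UMI per transcript whatever its length, so levels were not divided by length. Whether transcripts of different genes are captured alike was not tested, so levels and ratios across genes compare UMIs only. B lineage-like cells serve as a measure of background from free RNA in the droplets, except for Mmp14. They held 6.55, 4.62 and 3.85% of the Mmp14 UMIs on kept cells. Neutrophils with secondary granules, a class with more UMIs in total, held 1.49, 1.40 and 1.34%.

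**Figure D1:**
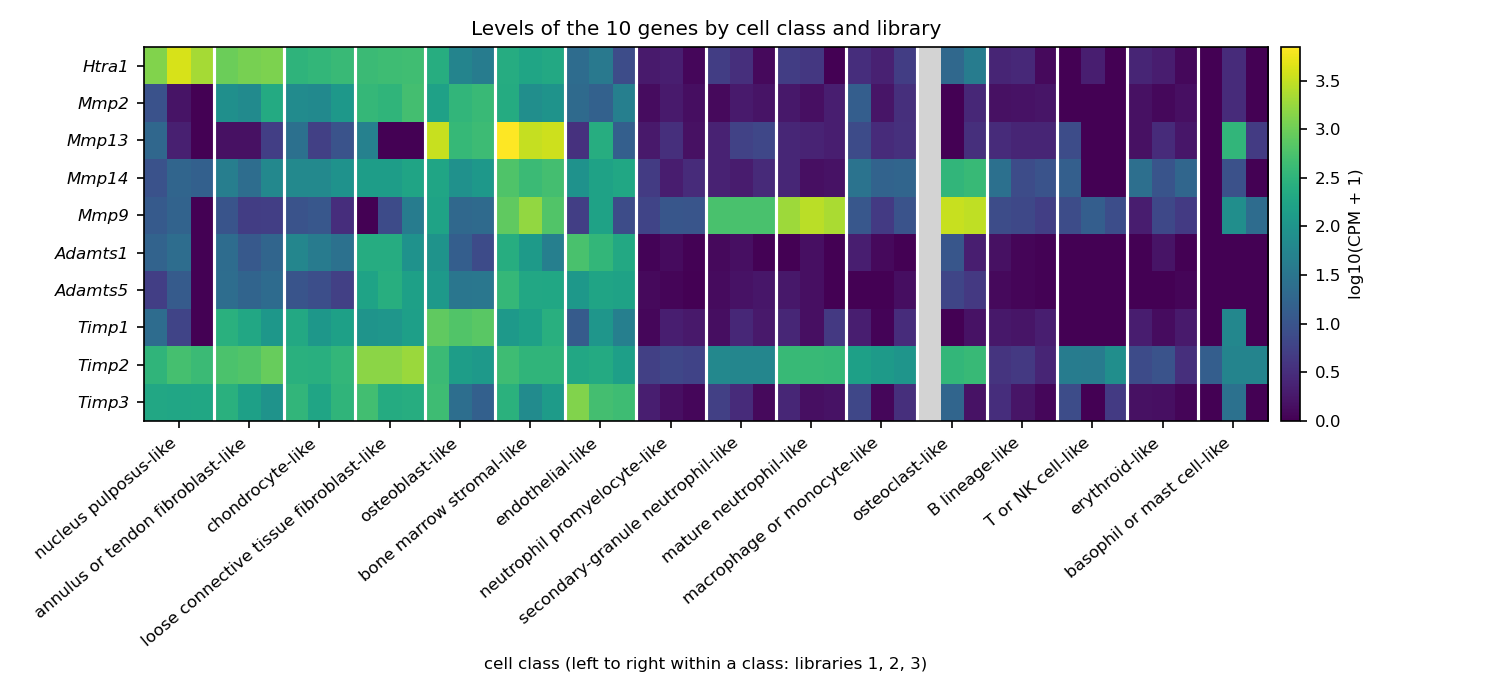
Levels of the 10 genes, as log10(CPM + 1), in 16 cell classes, with 1 column for each of the 3 libraries; grey marks a class with under 10 cells. Htra1 is brightest in nucleus pulposus-like cells, Mmp13 in bone marrow stromal-like cells, Mmp9 in mature neutrophil-like and osteoclast-like cells, and Timp2 in loose connective tissue fibroblast-like cells.

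In the nucleus pulposus-like cells 1 protease prevailed. Htra1 had 1309.6, 4144 and 2116 CPM there, against 431, 363 and 113 CPM in connective-tissue cells and 2.54, 1.78 and 1.14 CPM in blood cells. The lowest nucleus pulposus value was above the highest connective-tissue value, and all 3 libraries had the same order of the 3 compartments. Htra1 was higher in nucleus pulposus-like than in connective-tissue cells, with a log2 fold change of 2.97 (SE 0.51; edgeR adjusted p = 2.1e-06), and higher than in blood cells, with a log2 fold change of 10.04 (SE 0.57; edgeR adjusted p = 1.2e-65). It made up 95.2, 98.4 and 99.3% of the UMIs of the 7 proteases in these cells. With all cells thinned to 2000 UMIs, 69.7, 93.4 and 84.6% of them had a Htra1 UMI, against 47.9, 38.2 and 20.6% of connective-tissue cells and 0.324, 0.536 and 0.0442% of B lineage-like cells. In library 3 that share rests on 13 cells. The level moved with the mitochondrial share, at 2070.4, 4449 and 3154 CPM in nucleus pulposus-like cells with at least 1% mitochondrial UMIs and 671, 629 and 747 CPM in those with less, which numbered 429, 33 and 17. Both are above the connective-tissue level of their library, and the part of RNA quality in the level was not tested.

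Annulus or tendon fibroblast-like cells followed with 961, 1121 and 1213 CPM of Htra1, below every value of the whole nucleus pulposus-like class. They were above the nucleus pulposus-like cells with under 1% mitochondrial UMIs in every library, so the order of these classes depends on which nucleus pulposus-like cells are counted. Loose fibroblast-like cells had 442 ± 19.3 CPM and chondrocyte-like cells 359 ± 46.2 CPM (mean ± SD, n = 3 libraries), and these ranges did not overlap. Bone marrow stromal-like cells had 209 ± 27.5 CPM and osteoblast-like cells 113 ± 116 CPM, with overlapping ranges. Endothelial-like cells had 21.4 ± 14.3 CPM, and the highest mean in a blood class with 3 libraries was 2.49 CPM.

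The inhibitors Timp2 and Timp3 accompanied Htra1 in the nucleus pulposus-like cells, while Timp1 was low. Timp2 had 329, 521 and 420.3 CPM there and 393, 319 and 244 CPM in connective-tissue cells. The groups overlapped, and the difference was not called, with a log2 fold change of 0.26 (SE 0.38; edgeR adjusted p = 0.7) and a 95% interval of -0.49 to 1.01. Timp3 was even between libraries in nucleus pulposus-like cells, at 199, 186 and 196 CPM, against 336, 102 and 42.0 CPM in connective-tissue cells. Its log2 fold change of 0.51 (SE 0.38; edgeR adjusted p = 0.37) was not called either, with an interval of -0.22 to 1.25, although it was called without library 1 (1.07, adjusted p = 0.036). Timp1 had 22.1, 5.25 and 0 CPM in nucleus pulposus-like cells, against 238, 363 and 644 CPM in connective-tissue cells, and the groups were far apart. It was lower in nucleus pulposus-like cells, with a log2 fold change of -4.88 (SE 0.51; edgeR adjusted p = 5.1e-13). Of the TIMP UMIs of these cells, Timp2 gave 59.9, 73.1 and 68.2% and Timp1 4.02, 0.737 and 0%. The TIMP level also moved with the mitochondrial share. The 3 TIMPs together had 708 ± 66.4 CPM in nucleus pulposus-like cells with at least 1% mitochondrial UMIs (mean ± SD, n = 2 libraries). Those with less had 377 ± 136 CPM (n = 3), and the part of RNA quality was not tested.

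The other 6 proteases were lower in nucleus pulposus-like than in connective-tissue cells. Mmp13 had 18.3, 1.17 and 0 CPM, against 236, 335 and 547 CPM in connective-tissue cells, a log2 fold change of -5.37 (SE 0.55; edgeR adjusted p = 1.8e-13). Mmp2 had 8.40, 0.583 and 0 CPM, against 92.8, 196 and 377 CPM, a log2 fold change of -5.05 (SE 0.52; edgeR adjusted p = 2.4e-13). Mmp14 was the most regular of them, with 8.40, 16.9 and 14.0 CPM against 75.0, 86.9 and 129.9 CPM, a log2 fold change of -2.82 (SE 0.37; edgeR adjusted p = 1.3e-09). For each of these 3 genes every nucleus pulposus value was below every value of connective-tissue cells as a whole. The classes within that whole differed. Chondrocyte-like cells had 24.8, 4.41 and 8.76 CPM of Mmp13, and annulus or tendon fibroblast-like cells 0.478, 0.489 and 4.26 CPM. Both ranges overlapped that of nucleus pulposus-like cells, so low Mmp13 is not particular to nucleus pulposus-like cells. For Mmp2, chondrocyte-like cells had 71.6, 66.6 and 109.5 CPM, above every nucleus pulposus value. Adamts5 had 4.2, 11.7 and 0 CPM and Adamts1 15.7, 22.8 and 0 CPM, against 27.2, 37.0 and 45.6 and 63.8, 32.3 and 13.5 CPM in connective-tissue cells, with log2 fold changes of -2.25 (SE 0.42) and -1.31 (SE 0.39) and edgeR adjusted p = 1.3e-05 and 0.0075. For Adamts5, chondrocyte-like cells had 8.96, 7.47 and 4.38 CPM, overlapping nucleus pulposus-like cells. Annulus or tendon fibroblast-like cells, at 22.5, 16.2 and 21.3 CPM, were above them. The Adamts1 ranges of nucleus pulposus-like and connective-tissue cells overlapped, and its call was lost without library 1 (adjusted p = 0.40) or 2 (0.062). Mmp9 had 11.5, 15.8 and 0 CPM against 23.1, 100.2 and 50.1 CPM, a log2 fold change of -1.97 (SE 0.40; edgeR adjusted p = 4.8e-05), and lost the call without library 2 (adjusted p = 0.25). The connective-tissue level of Mmp9 rested largely on few cells. Of its 2145 UMIs over the libraries, 63, 895 and 449 lay in 2, 7 and 3 bone marrow stromal-like cells. At 2000 UMIs a cell, Mmp9 was found in 1.33, 2.63 and 0% of nucleus pulposus-like cells and in 0.972, 1.36 and 0.796% of B lineage-like cells, a background level. Library 3 had 71370 UMIs in 25 nucleus pulposus-like cells, so that a count of 0 there allows up to 42.0 CPM.

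Of the 10 genes, 1 was higher and 7 were lower in nucleus pulposus-like than in connective-tissue cells, where 9.33% of 12055 genes tested were higher and 14.2% lower, 23.5% in all. Their median log2 fold change was -2.11, against -0.15 over all genes tested. Restricted to cells with at least 1% mitochondrial UMIs, which left libraries 1 and 2, 3 of the 10 were called, namely Htra1, Mmp14 and Adamts5, and 638 genes in place of 2832. Against blood cells, 6 genes were higher and 1 was lower of the 8 tested, with 22.3% of 12798 genes tested higher and 26.9% lower, 49.2% in all. Timp3 was higher with a log2 fold change of 7.04 (SE 0.44; edgeR adjusted p = 2.0e-54), Timp2 with a log2 fold change of 2.94 (SE 0.38; edgeR adjusted p = 2.0e-13), and Timp1 with a log2 fold change of 3.56 (SE 0.61; edgeR adjusted p = 4.2e-08). Mmp9 was lower, with a log2 fold change of -4.71 (SE 0.46; edgeR adjusted p = 7.3e-23). Mmp2 and Mmp13 passed the test as higher, but only in library 1 were they above blood cells, and without that library their log2 fold changes were -0.48 and -2.16, neither called. Mmp14 had 8.40, 16.9 and 14.0 CPM in nucleus pulposus-like cells and 7.21, 7.93 and 13.2 CPM in blood cells, overlapping ranges, and was not called.

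**Figure D2:**
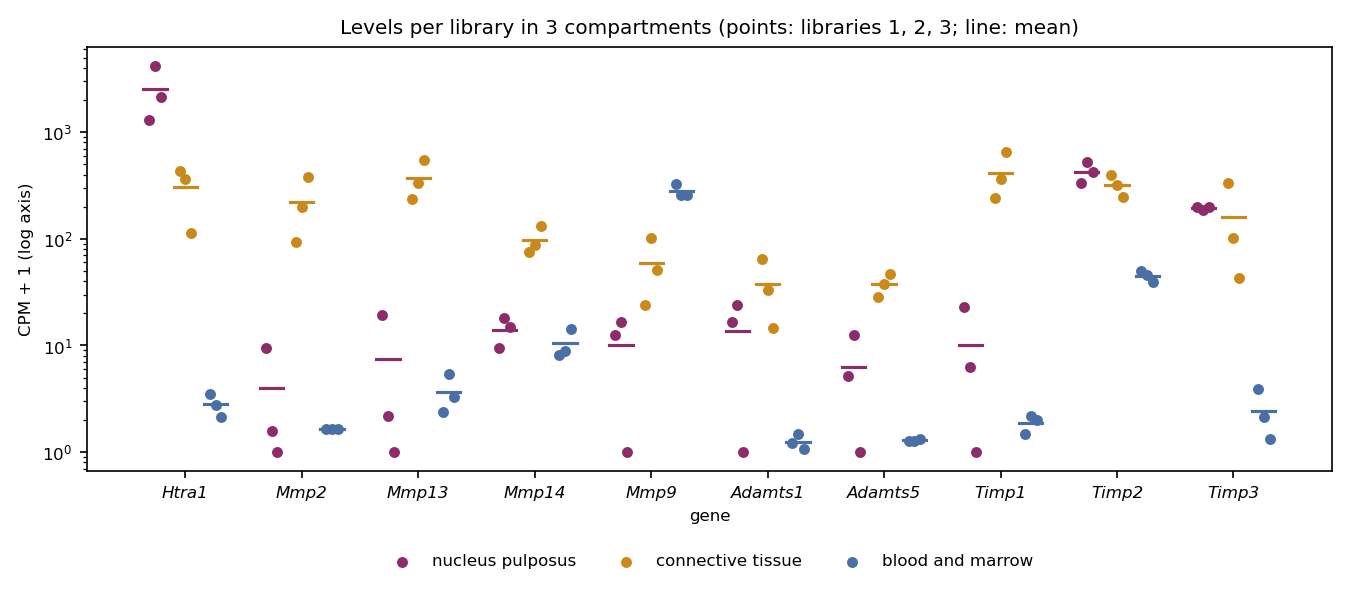
CPM + 1 on a log axis for each of the 10 genes in nucleus pulposus-like cells (left in each group), connective-tissue cells (middle) and blood and marrow cells (right); points are the 3 libraries and lines their mean. Htra1 stands highest in the nucleus pulposus, Timp2 and Timp3 overlap between nucleus pulposus and connective tissue, and Mmp9 is highest in blood.

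Connective-tissue cells as a whole held more of every gene but Mmp9 than blood cells did. Of the 10 genes, 9 were higher and 1 was lower, with 31.8% of 14318 genes tested higher and 32% lower, 63.8% in all. The inhibitor Timp1 differed most, with 238, 363 and 644 CPM in connective-tissue cells against 0.464, 1.19 and 0.983 CPM in blood cells, a log2 fold change of 8.71 (SE 0.37; edgeR adjusted p = 2.9e-04). Mmp2 followed, with a log2 fold change of 8.10 (SE 0.62; edgeR adjusted p = 7.1e-04). The smallest called rise was that of Timp2, with 393, 319 and 244 CPM against 49.0, 44.8 and 38.1 CPM, a log2 fold change of 2.68 (SE 0.13; edgeR adjusted p = 3.3e-04). Htra1, Mmp13, Adamts1, Adamts5 and Timp3 had log2 fold changes between 6.60 and 7.08, and Mmp14 one of 3.22 (SE 0.16). For all 9 the groups did not overlap. Mmp9 had 23.1, 100.2 and 50.1 CPM in connective-tissue cells and 326, 256 and 257 CPM in blood cells, a log2 fold change of -2.64 (SE 0.61; edgeR adjusted p = 0.017).

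Within the connective tissue, Mmp13 was sharply divided between classes. Bone marrow stromal-like cells, the Cxcl12-rich cells that support blood formation, had 7008, 3259 and 3584 CPM, and osteoblast-like cells, which build bone, 3353, 373 and 438 CPM. Chondrocyte-like cells had 24.8, 4.41 and 8.76 CPM and annulus or tendon fibroblast-like cells 0.478, 0.489 and 4.26 CPM, against 1.99, 1.48 and 1.47 CPM in B lineage-like cells. The stromal-like and osteoblast-like ranges overlapped through library 1, and both were above every value of the other 2 classes. At 2000 UMIs a cell, 61.9, 89.4 and 85.9% of the stromal-like cells had a Mmp13 UMI, against 35.8, 17.7 and 18.9% of osteoblast-like and 0.810, 0.244 and 0.531% of B lineage-like cells. The stromal-like class was small, with 22, 48 and 85 cells, and plasma cell genes (Ighg2c, Igha and Jchain) stood among its leading genes. Jchain had 0, 6343 and 0 CPM there, with UMIs in library 2 alone, while Mmp13 was high in all 3.

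Among osteoblast-like cells Mmp13 was unevenly spread. The tenth of cells with most of it held 62.1, 90.7 and 86.6% of its UMIs, and cells without any made up 41 of 70, 156 of 223 and 452 of 667. Spp1 (osteopontin) had 41183, 21134 and 25954 CPM in cells with a Mmp13 UMI, against 6272, 13769 and 10084 CPM in cells without one. Cxcl12, a marker of the stromal-like gate, had 258, 128 and 181 CPM against 0, 5.30 and 8.84 CPM. Stromal-like cells had 7812, 8136 and 10220 CPM of it. The gates set no margin between connective-tissue classes. In library 1, the cartilage collagen gene Col2a1 had 234 CPM in osteoblast-like cells with Mmp13 and 4783 CPM in those without. Bglap (osteocalcin), a gene of mature osteoblasts, had 1456, 11789 and 16958 CPM in cells with a Mmp13 UMI, against 1422, 35543 and 48357 CPM in cells without one. In libraries 2 and 3 the Bglap level was lower in the cells with Mmp13, and in library 1 it was low in both. The inhibitor Timp1 had 1231, 813 and 987 CPM in cells with a Mmp13 UMI, against 218, 559.8 and 614 CPM in cells without one, and was higher beside Mmp13 in all 3 libraries. The median depth of the cells with Mmp13 was 8848, 15433 and 17179 UMIs and of those without 4471, 20888 and 20250.0, and these splits by a measured gene are descriptions without a test. Of the chondrocyte-like cells of library 1, 17 had a Mmp13 UMI, and Col10a1, the collagen of hypertrophic cartilage, stood at 20233 CPM in them against 1164 CPM in the rest.

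Mmp14 and Mmp2, the pair that works with Timp2, had wider patterns. Mmp14 was highest in stromal-like cells, at 617, 418 and 489 CPM, above the range of every other connective-tissue class. Mmp14 averaged 149 ± 54.6 CPM in the endothelial-like class, 149 ± 21.8 CPM in the loose fibroblast-like, 126 ± 48.0 CPM in the osteoblast-like and 72.7 ± 14.8 CPM in the chondrocyte-like class (mean ± SD, n = 3), each overlapping the next. Mmp2 was highest in loose fibroblast-like cells, at 358, 323 and 503 CPM, and in osteoblast-like cells, at 159, 342 and 401 CPM, and these ranges overlapped. Chondrocyte-like cells had 71.6, 66.6 and 109.5 CPM, and endothelial-like cells 20.1, 14.6 and 44.2 CPM, below all of them. Their partner Timp2 was highest in loose fibroblast-like cells, at 1500.2, 1479 and 1858 CPM, followed by annulus or tendon fibroblast-like cells at 576, 639.8 and 881 CPM, with no overlap between these classes or with the next.

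The aggrecanases were not highest in the aggrecan-rich cells. Adamts5 had 8.96, 7.47 and 4.38 CPM in chondrocyte-like cells, against 357, 203 and 194 CPM in stromal-like, 169, 261 and 154 CPM in loose fibroblast-like and 113, 175 and 163 CPM in endothelial-like cells. Every chondrocyte value was below every value of these 3 classes. Adamts1 was highest in endothelial-like cells, at 555, 346 and 211 CPM, and its range there overlapped that of loose fibroblast-like cells at 241, 241 and 90.1 CPM. Chondrocyte-like cells had 57.3, 39.1 and 26.3 CPM of Adamts1. Timp3, the inhibitor of these enzymes, was also highest in endothelial-like cells, at 1310.1, 499 and 445 CPM, overlapping loose fibroblast-like cells at 472, 234 and 247 CPM, while chondrocyte-like cells had 336, 182 and 326 CPM. Endothelial-like cells numbered 161, 57 and 48 and entered no test.

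Chondrocyte-like cells held less of 6 of the 10 genes than osteoblast-like cells, and more of 0, where 8.36% of 11070 genes tested were higher and 6.97% lower, 15.3% in all. Mmp13 had 24.8, 4.41 and 8.76 CPM in chondrocyte-like cells and 3353, 373 and 438 CPM in osteoblast-like cells, a log2 fold change of -6.67 (SE 0.34; edgeR adjusted p = 8.9e-04). Timp1 had 207, 109 and 153 CPM in chondrocyte-like and 797, 637 and 729.7 CPM in osteoblast-like cells, a log2 fold change of -2.45 (SE 0.28; edgeR adjusted p = 0.0049). Adamts5 was lower with a log2 fold change of -3.04 (SE 0.34; edgeR adjusted p = 0.0042), Mmp2 with a log2 fold change of -2.01 (SE 0.35; edgeR adjusted p = 0.016), and Mmp14 with a log2 fold change of -0.95 (SE 0.21; edgeR adjusted p = 0.036). Of Mmp9, which was lower with a log2 fold change of -2.87 (SE 0.67; edgeR adjusted p = 0.04), 1 cell held 68 of the 87 osteoblast UMIs of library 1. Htra1 had 319, 349 and 409.7 CPM in chondrocyte-like and 247, 53.5 and 39.7 CPM in osteoblast-like cells, groups that did not overlap, and its log2 fold change of 1.97 (SE 0.51; edgeR adjusted p = 0.052) fell just short of a call. Timp2 and Timp3 were not called, with 95% intervals, unadjusted for the number of genes, of -0.24 to 1.11 and 0.48 to 4.0 and edgeR adjusted p = 0.46 and 0.16. Adamts1 was not called and had 57.3, 39.1 and 26.3 against 93.7, 13 and 6.68 CPM.

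Library 1 stood apart in this comparison. Its 70 osteoblast-like cells had a median of 5607 UMIs, against 19615 and 19705 in libraries 2 and 3, and 1441, 28309 and 38641 CPM of Bglap. They held more of each of the 10 genes except Mmp2 than those of the other libraries, as the plot of these classes shows. The gap was small for Timp1, at 797, 637 and 729.7 CPM. Mmp2 was lower in library 1, at 159, 342 and 401 CPM. The cartilage collagen gene Col2a1 had 2185, 223 and 28.8 CPM in osteoblast-like cells, and Col10a1 had 505, 111 and 1.60 CPM. The part of cartilage RNA in the library 1 levels was not tested. Without library 1, all 10 genes were called, with Htra1, Timp2 and Timp3 higher in chondrocyte-like cells by log2 fold changes of 2.69, 0.91 and 3.42. Adamts1 was also on the higher side, with 39.1 and 26.3 CPM in chondrocyte-like cells of libraries 2 and 3 against 13 and 6.68 CPM in osteoblast-like cells. Without library 2 or 3 the number called was 3 each time. Mmp13 and Adamts5 were lower in chondrocyte-like cells in every one of the 17 alternatives.

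**Figure D3:**
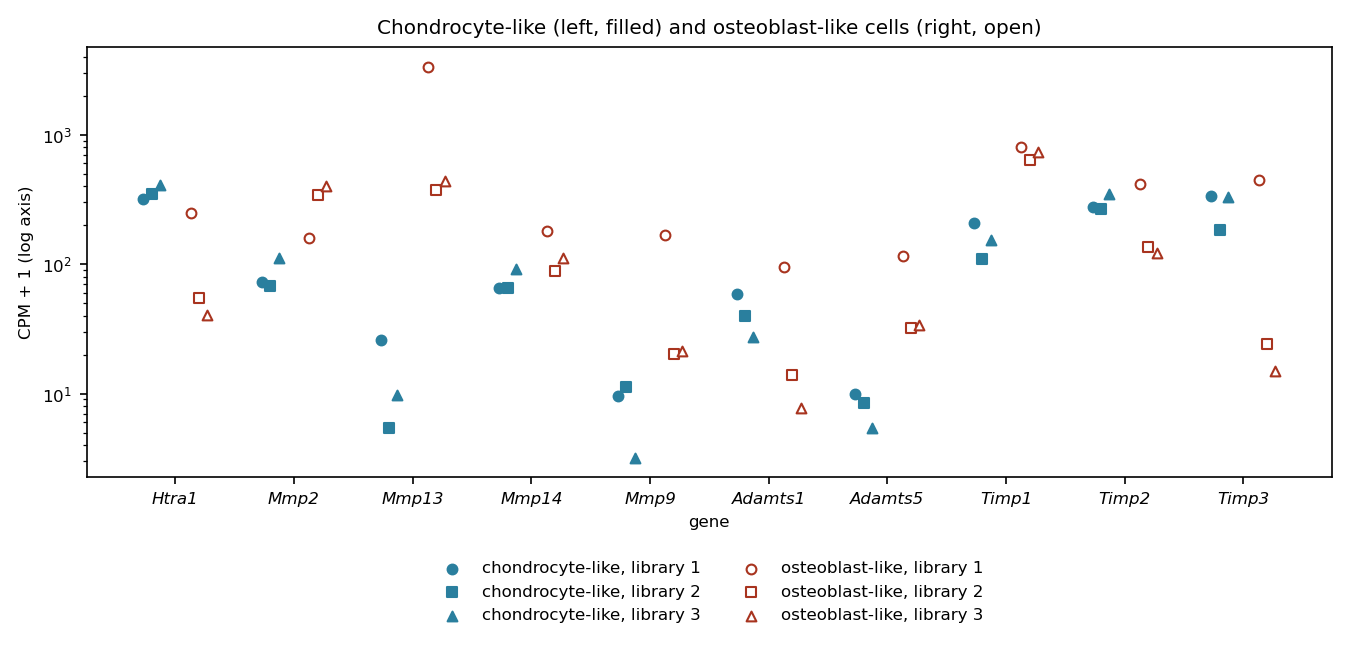
CPM + 1 on a log axis of the 10 genes in chondrocyte-like cells (filled, left) and osteoblast-like cells (open, right), with a marker shape for each library. Mmp13 and Timp1 are higher in osteoblast-like cells of every library, and library 1 (open circles) differs from libraries 2 and 3 for Mmp13, Htra1 and Timp3.

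In the neutrophil lineage Mmp9 and Timp2 stood out, both with higher CPM at each later stage, while each of the other 8 genes had under 4 CPM in mature cells of every library. Mmp9 belongs to the gelatinase granules that neutrophils make late in their development. It had 5.08, 9.61 and 9.35 CPM in promyelocyte-like cells, 548, 559.7 and 557 CPM in neutrophils with secondary granules and 1914, 2767 and 2278 CPM in mature neutrophil-like cells. Timp2 had 4.27, 5.54 and 4.96 CPM, 62.2, 56.3 and 56.9 CPM and 396, 390.0 and 378 CPM over the same stages. The stages did not overlap for either gene, and the libraries differed little. CPM is a share of UMIs, and the median depth fell over the stages. It was 28041, 36090 and 32492 UMIs in promyelocyte-like cells, 10176, 12244 and 11754 with secondary granules and 2674.5, 3566 and 3366 in mature cells. Mature cells, numbering 406, 568 and 516, held 18.7, 19.9 and 14.6% of the Mmp9 UMIs on kept cells. The 1209, 1975 and 1943 cells with secondary granules held 71.2, 57.9 and 55.3%. The CPM step between them is thus no measure of UMIs per cell. Timp1, the TIMP known to bind the Mmp9 precursor, stayed at 0.182, 1.13 and 0.804, then 0.412, 1.68 and 0.835, then 1.57, 0.463 and 3.37 CPM, against 0.746, 0.633 and 1.11 CPM in B lineage-like cells. Mature neutrophil-like cells had more Mmp9 than the earlier stages, with a log2 fold change of 3.4 (SE 0.20; edgeR adjusted p = 1.3e-07), and more Timp2, with a log2 fold change of 4.0 (SE 0.19; edgeR adjusted p = 3.4e-08). These were 2 of the 8 genes tested, with 0 lower, where 26.2% of 11178 genes tested were higher and 36% lower, 62.2% in all. At 2000 UMIs a cell, Mmp9 was found in 1.05, 1.10 and 1.76% of promyelocyte-like cells, 56.8, 51.0 and 51.9% of those with secondary granules and 92.9, 96.8 and 96.9% of mature neutrophil-like cells.

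**Figure D4:**
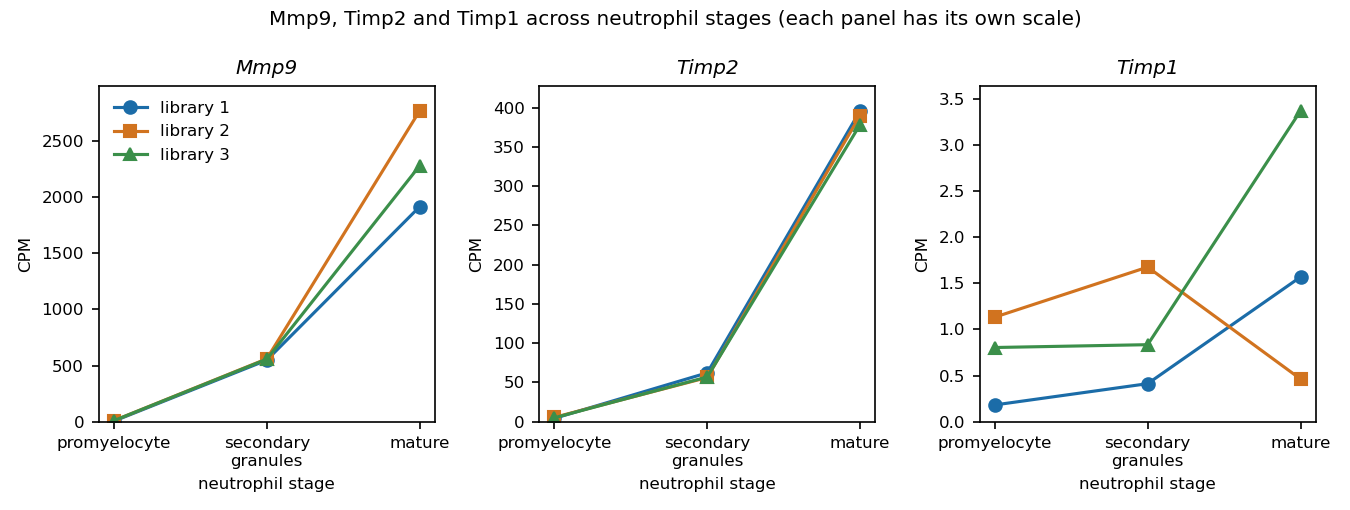
CPM of Mmp9, Timp2 and Timp1 in promyelocyte-like, secondary-granule and mature neutrophil-like cells, with a line for each library and a scale for each panel. Mmp9 and Timp2 climb with stage in all 3 libraries, while Timp1 stays under 4 CPM.

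Against all other blood cells, the whole neutrophil lineage had more Mmp9, with 403, 414 and 332 CPM against 19.5, 70.9 and 142 CPM, a log2 fold change of 3.25 (SE 0.66; edgeR adjusted p = 0.011). The other blood cells include the few osteoclast-like cells, which held 103 of 143, 3143 of 3437 and 5290 of 5463 Mmp9 UMIs of that sum. Timp2 had 55.0, 47.7 and 40.4 CPM against 25.1, 41.2 and 34.5 CPM, a log2 fold change of 1.12 (SE 0.24; edgeR adjusted p = 0.013), with overlapping ranges. Mmp14 was lower in the neutrophil lineage, with 2.22, 0.982 and 1.89 CPM against 27.1, 16.1 and 30.6 CPM, a log2 fold change of -3.27 (SE 0.16; edgeR adjusted p = 1.9e-04). In all, 3 of 10 genes were higher and 1 lower, with 27.9% of 13760 genes tested higher and 30.1% lower, 58% in all. The third called higher, Adamts5, had under 1 CPM in both groups of every library. The mitochondrial share of mature neutrophil-like cells was low, with medians of 0.422, 0.480 and 0.429%. With at least 1% required of all cells, the whole lineage against other blood cells had a log2 fold change of 0.70 for Mmp9 (edgeR adjusted p = 0.44) and -0.65 for Timp2 (0.060). Mature against earlier neutrophils stayed called at that limit, with 3.87 for Mmp9 (adjusted p = 1.0e-10) and 3.76 for Timp2 (2.1e-11).

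Other blood classes differed in both kinds of gene. Macrophage or monocyte-like cells had 153, 125 and 102 CPM of Timp2, against 46.3, 35.4 and 34.5 CPM in other blood cells, a log2 fold change of 1.44 (SE 0.12; edgeR adjusted p = 4.7e-04). They had little Mmp9, at 9.89, 3.56 and 8.53 CPM against 334, 285 and 272 CPM, a log2 fold change of -5.78 (SE 0.30; edgeR adjusted p = 1.1e-04). Mmp14 had 28.6, 15.7 and 17.1 CPM against 6.67, 7.04 and 13 CPM, a log2 fold change of 0.84 (SE 0.25; edgeR adjusted p = 0.04), and lost the call without library 2 (adjusted p = 0.062). The other blood cells include the neutrophil lineage, with a mean of 1.70 CPM of Mmp14. All blood cells outside that lineage had a mean of 24.6 CPM, so the rise is not particular to macrophage or monocyte-like cells, with a mean of 20.4 CPM. Timp2 and Mmp14 were 2 of 8 genes tested that were higher, and Mmp9 the 1 lower, with 21.7% of 12738 genes tested higher and 23.5% lower, 45.2% in all. Osteoclast-like cells, which dissolve bone, had 3358 and 2969 CPM of Mmp9 in libraries 2 and 3, with 33 and 69 cells, and 2 cells in library 1. They also held Mmp14 at 337 and 392 CPM and Timp2 at 356 and 391 CPM, with Timp1 at 0 and 1 UMI.

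A second site of Mmp9 outside the neutrophils was the stromal-like class, with 812, 1693 and 627 CPM. There it rested on few cells. The highest cell held 50.0, 41.7 and 63.9% of its UMIs, and 2, 7 and 3 cells had at least 10. Those cells had 4338, 5511 and 5032 CPM of Cxcl12 and 13661, 6383 and 5709.7 CPM of Mmp13. Of the osteoclast genes Acp5 and Ctsk, Acp5 had 0 UMIs in them, while Ctsk had 92.3, 55.9 and 32.3 CPM, against 35.6, 92.7 and 78.9 CPM in the other stromal-like cells. The other stromal-like cells had 329, 52.9 and 71.1 CPM of Mmp9.

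Setting the UMIs of the 7 proteases against those of the 3 TIMPs gave each class a ratio of transcripts, which says nothing of enzyme activity. Bone marrow stromal-like cells had 11.2, 10.7 and 7.26 protease UMIs per TIMP UMI, mostly Mmp13. Nucleus pulposus-like cells had 2.50, 5.91 and 3.45, nearly all Htra1, which TIMPs do not block. This ratio was 3.33, 5.99 and 4.30 in those with at least 1% mitochondrial UMIs, which numbered 101, 129 and 8, and 1.5, 3.03 and 1.64 in those with less. The ratio was 2.61, 1.16 and 1.21 in the osteoblast-like class, 1.01, 1.25 and 1.43 in annulus or tendon fibroblasts, 0.680, 0.972 and 0.786 in chondrocyte-like and 0.665, 0.775 and 0.632 in loose fibroblast-like cells. Chondrocyte-like and loose fibroblast-like cells were thus below 1 in every library. Htra1 also gave most protease UMIs in annulus or tendon fibroblast-like cells and in chondrocyte-like cells, where its mean was 359 of 582 CPM. A ratio near 1 there is therefore not a balance between TIMPs and the proteases they block. In blood, mature neutrophil-like cells had 4.82, 7.09 and 5.97, and without Mmp9 the mean ratio was 0.0152. Macrophage or monocyte-like cells had 0.386, 0.187 and 0.327. The main inhibitor also differed by class, Timp1 giving 48.2, 80.1 and 84.5% of TIMP UMIs in osteoblast-like cells, Timp2 99.2, 99.8 and 99.0% in mature neutrophil-like cells, and Timp3 85.9, 60.2 and 70.1% in endothelial-like cells.

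**Figure D5:**
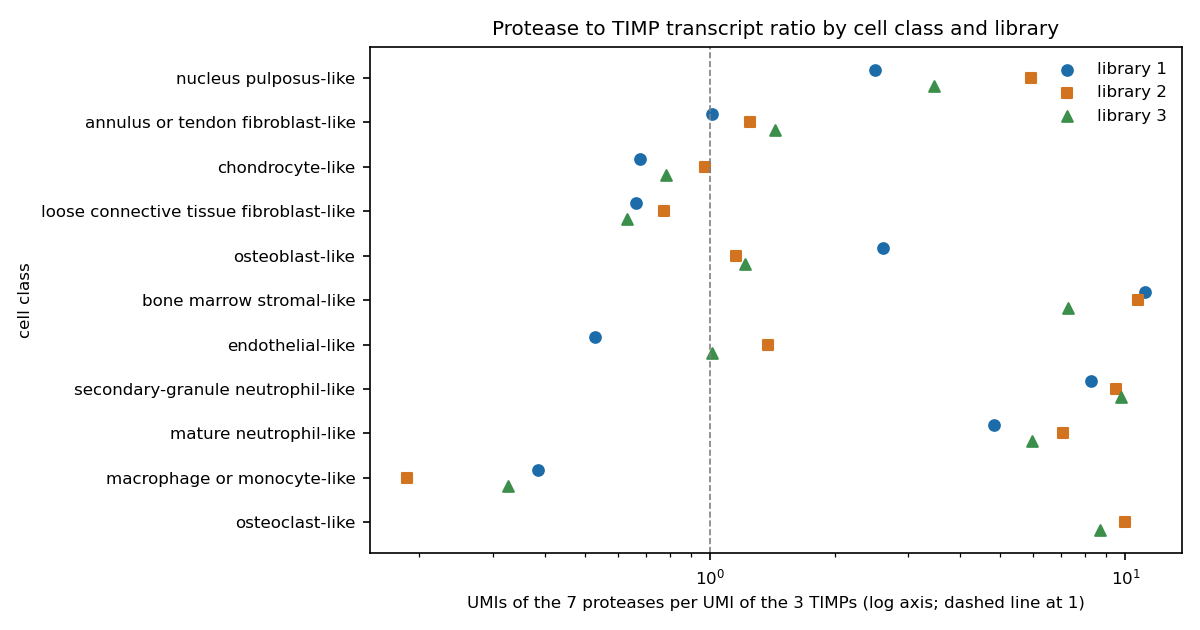
UMIs of the 7 proteases per UMI of the 3 TIMPs by cell class, on a log axis, with a marker for each library and a dashed line at 1. Stromal-like, neutrophil and osteoclast-like cells lie well above 1, and chondrocyte-like, loose fibroblast-like and macrophage or monocyte-like cells below it.

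Protease and inhibitor were also counted within single cells, thinned to 2000 UMIs each. Of neutrophils with secondary granules that had a Mmp9 UMI, 24.3, 24.8 and 24.9% also had Timp2, against 4.51, 4.34 and 5.31% of those without Mmp9. Timp1 was found with Mmp9 in 0, 0 and 2 of the 670, 985 and 995 cells with Mmp9. The CPM of Mmp9 and of Timp2 both rose over the neutrophil stages, and the part of stage in these shares was not tested. In osteoblast-like cells, Timp1 was found in 58.3, 71.8 and 80.8% of those with Mmp13 and 16.3, 59.1 and 64.0% of those without. In chondrocyte-like cells of libraries 1 and 2, Timp3 was found in 32.0% and 20% of cells with Adamts1, against 33.6% and 22.7% of those without. In nucleus pulposus-like cells of libraries 1 and 2, Timp3 was found in 27.9% and 29.6% of cells with Htra1, against 10.5% and 20% of those without. Since 262 of 376 and 142 of 152 of these cells had Htra1, the second share without it rests on 10 cells. Cells of 1 library share their source, so these shares are descriptions.

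Other genes of the pathway, 70 in 6 lists, were mostly lower or not called in nucleus pulposus-like cells. Of 51 tested against connective-tissue cells, 2 were higher and 27 lower, where 9.33% of all genes tested were higher and 14.2% lower. The median log2 fold change was -1.69, against -0.15 over all genes. Of the other Adamts proteases, 1 of 10 tested were higher and 8 lower. The one higher was Adamts20, with 25.5 ± 15.3 CPM in nucleus pulposus-like cells and 0.290 ± 0.177 CPM in connective-tissue cells, a log2 fold change of 5.86 (SE 0.64), edgeR adjusted p = 2.6e-12. Of the other inhibitors and clearance genes, 0 of 12 tested were higher and 8 lower. Among them were Serpine2, an inhibitor of plasminogen activators and thrombin, with 7.26 ± 11.6 CPM in nucleus pulposus-like cells and 625 ± 359.9 CPM in connective-tissue cells, a log2 fold change of -5.92 (SE 0.61), edgeR adjusted p = 3.2e-13, and the complement inhibitor Serping1, with a log2 fold change of -5.82 (SE 0.51). Serpinf1, which encodes a secreted serpin that blocks vessel growth, had 13.1 ± 11 CPM in nucleus pulposus-like cells and 2268 ± 2046 CPM in connective-tissue cells, a log2 fold change of -6.90 (SE 0.81), edgeR adjusted p = 4.0e-11. Fap, a serine protease of activated fibroblasts, had a log2 fold change of -5.53 (SE 0.55). Against blood cells, Htra3, a relative of Htra1, had 96.4 ± 27.0 CPM in nucleus pulposus-like cells and 0.923 ± 0.483 CPM in blood cells, a log2 fold change of 6.37 (SE 0.44), edgeR adjusted p = 3.8e-45. Prss23 and Pcsk5, other serine proteases, were higher there too, with log2 fold changes of 7.70 (SE 0.61) and 7.39 (SE 0.72).

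In connective-tissue cells, 40 of 57 such genes tested were higher than in blood cells and 8 lower, where 31.8% of all genes tested were higher and 32% lower. Of the other Adamts proteases, 11 of 12 tested were higher and 0 lower. Adamts2, which trims procollagen, had 142 ± 101 CPM in connective-tissue cells and 0.263 ± 0.136 CPM in blood cells, a log2 fold change of 8.88 (SE 0.53), edgeR adjusted p = 4.4e-04. Mmp16, a membrane-bound relative of Mmp14, and Serpinh1, the collagen chaperone of the serpin family, had log2 fold changes of 9.21 (SE 0.31) and 8.96 (SE 0.50). The neutrophil collagenase Mmp8 was lower, with 7.40 ± 0.215 CPM in connective-tissue cells and 215 ± 36.7 CPM in blood cells, a log2 fold change of -5.00 (SE 0.27), edgeR adjusted p = 3.6e-04. Between chondrocyte-like and osteoblast-like cells, 5 of 44 were higher and 17 lower in the chondrocyte-like cells, where 8.36% of all genes tested were higher and 6.97% lower. Adam12 had 6.70 ± 1.88 CPM in chondrocyte-like cells and 114 ± 22.5 CPM in osteoblast-like cells, a log2 fold change of -4.37 (SE 0.22), edgeR adjusted p = 8.9e-04, and Adamts2 was lower with a log2 fold change of -5.10 (SE 0.50). Htra3 had 204 ± 52.0 CPM in chondrocyte-like cells and 62.8 ± 13 CPM in osteoblast-like cells, a log2 fold change of 1.48 (SE 0.18), edgeR adjusted p = 0.0051. Reck, a membrane-anchored metalloproteinase inhibitor, was higher in chondrocyte-like cells, with a log2 fold change of 1.55 (SE 0.28).

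Mature neutrophil-like cells had 15 of 30 pathway genes tested higher and 2 lower than the earlier stages, where 26.2% of all genes tested were higher and 36% lower. Mmp8, which neutrophils store in secondary granules, had 1972 ± 239.8 CPM in mature neutrophil-like cells and 258 ± 11.1 CPM in earlier neutrophils, a log2 fold change of 3.43 (SE 0.19), edgeR adjusted p = 8.9e-08. Adam8, Adam19 and the lysosomal protease Ctsd were higher with log2 fold changes of 3.81 (SE 0.21), 5.37 (SE 0.30) and 3.06 (SE 0.20). Adam8 varied between libraries, with an SD of 299 around a mean of 570.2 CPM in mature cells. Htra2, a mitochondrial protease, and Serpine2 were lower, with log2 fold changes of -2.16 (SE 0.27) and -2.28 (SE 0.31). In the whole neutrophil lineage against other blood cells, 13 of 42 were higher and 10 lower, near the 27.9% and 30.1% of all genes tested. Among those higher were Mmp8 at 4.83 (SE 0.38), the membrane-bound Mmp25 at 5.96 (SE 0.14) and the urokinase receptor Plaur at 4.58 (SE 0.59), as log2 fold changes. In macrophage or monocyte-like cells 16 of 38 were higher and 10 lower than in other blood cells, where 21.7% of all genes tested were higher and 23.5% lower. The higher genes include all 6 cathepsins. Ctss had 1076 ± 232 CPM in macrophage or monocyte-like cells and 26.4 ± 13.8 CPM in other blood cells, a log2 fold change of 5.23 (SE 0.23), edgeR adjusted p = 7.1e-05, and Lrp1, a receptor that clears proteases bound to inhibitors, had 143 ± 21.7 CPM in macrophage or monocyte-like cells and 5.29 ± 1.22 CPM in other blood cells, a log2 fold change of 4.53 (SE 0.22), edgeR adjusted p = 8.3e-05.

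Across the 47 sums of a class in a library with at least 10 cells, the gene whose log2(CPM + 1) followed each member most closely was sought among 8803 genes. For Adamts1 it was Lama4, a laminin of vessel walls (Pearson r = 0.971). For Timp3 it was Cavin1, a coat protein of caveolae (0.967), for Htra1 the type VI collagen gene Col6a3 (0.952), and for Adamts5 the receptor phosphatase Ptprg (0.960). Mmp2 and Timp1 shared Hoxb9 (0.957 and 0.942). Mmp13 was closest to Gdpd2 (0.884), Mmp14 to Cd276 (0.875), Timp2 to Ptms (0.882) and Mmp9 to Il1rn, the interleukin 1 receptor antagonist (0.771). The sums of a class share cell type, and those of a library share depth and pool, so these are descriptions over points that are not independent.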

How the data were processed

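The authors deposited raw counts, whole UMIs per gene and barcode with no normalization, on a filtered barcode list for each of 3 libraries of 1 group. Per the submitters' processing notes, Cell Ranger 3.0.2, Seurat 4 and mm10 were used, and per the file headers library 1 was written by version 3.0.1 and libraries 2 and 3 by 6.0.0. The 30406 gene IDs shared by all were used, holding 99.9%, 99.6% and 99.6% of 64695292, 145925353 and 137188648 UMIs. Floors (3 UMIs) cover counting error only.

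Filters asked for 500 genes or more and no more than 15% mitochondrial UMIs, after which 89, 474 and 394 predicted doublets were removed with Scrublet (scanpy 1.11.5, Python 3.11.15) at its own threshold. Each cell went to the class with the highest mean marker score (at least 3 markers detected, score at least 0.1, a rival lineage at most 0.5 of it); nucleus pulposus needed 3 of its 4 markers and took precedence. A plasmacytoid dendritic list was dropped after the data were seen, because Bst2, Irf8 and Tcf4 of it were widespread. Sums of UMIs, 1 for each class of a library, went into edgeR 4.0.16 in R 4.3.3 (quasi-likelihood, filterByExpr, TMM, Benjamini-Hochberg over all genes tested, called under 0.05), with the library as replicate block because the study's design text gives each library its own pool of animals, which pairs the sums. SE is the absolute log2 fold change over the square root of F. Intervals are at 95%, taken from that SE by the normal distribution, so they include spread between libraries. With so few libraries they can be narrower than the test itself would give. The test was checked on simulated counts with 200 genes changed 4-fold. It recovered 91.5% of them for connective-tissue against blood cells, with 4 false calls. For nucleus pulposus-like against connective-tissue cells it recovered 76%, with 2 false calls, so real changes there can go uncalled. P-values refer to the spread between 3 pools as edgeR models it, with information on spread shared over genes. A very small p-value therefore does not mean that the 3 libraries agree closely for that gene.

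Alternatives were DESeq2 1.42.0, no filter, no block, each library left out, other limits on mitochondrial share and genes, other doublet rules, other gates, and, added after the data were seen, no shared barcodes and a stricter margin between lineages. Named pathway genes were drawn from the 4 largest and 4 smallest called log2 fold changes, alike in every library, with at least 10 CPM in the higher sum. The values of 1 such gene are not reported here. The members and lists were chosen with earlier results of these data known.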

Additional observations from a re-analysis of the deposited data

Results flagged for a closer look

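Cells that reached no class entered no comparison, and they held UMIs of these genes. The 424, 533 and 510 ungated cells of libraries 1, 2 and 3 held 734, 85 and 539 UMIs of Mmp13, or 16.4, 1.65 and 4.79% of those on kept cells, and 529, 239 and 708 UMIs of Mmp9, or 4.05, 0.796 and 2.55%. At 136, 11.6 and 72.7 CPM, Mmp13 was above the 1.99, 1.48 and 1.47 CPM of B lineage-like cells. Mmp9 had 98, 32.7 and 95.5 CPM, against 6.97, 5.77 and 4.16 CPM in B lineage-like cells. Few ungated cells carried Mmp13, 16, 6 and 10 having any, and 1 cell of library 3 held 631 of the Mmp9 UMIs. Cells with markers of several lineages held 784, 969 and 1561 UMIs of Mmp13 and 271, 1600 and 1078 of Mmp9.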

How the results depend on the processing

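Of 763 alternative values of 45 member results, 704 kept direction and call, 40 lost the call, 15 gained one and 4 changed sign. The sign changes were Mmp2 and Mmp13 in nucleus pulposus against blood without library 1 (-0.48 and -2.16; -0.48 to 3.42 and -2.16 to 3.23 over the libraries left out), Timp2 in nucleus pulposus against connective tissue with at least 1000 genes (-0.00283), and Timp2 in the neutrophil lineage with at least 1% mitochondrial UMIs (-0.65). Leaving out 1 library gave 1422 to 2358 called genes and 6 to 8 members in nucleus pulposus against connective tissue, 511 to 3351 and 3 to 10 in chondrocyte-like against osteoblast-like cells, and 3669 to 7421 and 3 to 4 in macrophage or monocyte-like cells, the other comparisons moving by at most 1.5 times; the cause was not tested. For nucleus pulposus against connective tissue, DESeq2 called 1865 genes and the fit with no replicate block 1761, against 2832, and at least 1% mitochondrial UMIs left 638 genes and 3 members, with 2 libraries. The fit with no replicate block cost the calls of Mmp9 and Adamts1 there, Mmp13 in nucleus pulposus against blood and Mmp14 in macrophages. No filter gave 2735 genes for chondrocyte-like cells, at least 1% mitochondrial UMIs 2992 for mature neutrophils, and the preset doublet rate 4 members for mature neutrophils and 5 for macrophages. Size factors of DESeq2 moved the median log2 fold change of all genes from -0.23 to -0.42 in nucleus pulposus against blood and from -0.15 to -0.28 against connective tissue. Htra1 in chondrocyte-like cells passed in 10 of 17 alternatives, with log2 fold changes of 1.45 to 2.69. Stricter margins between lineages cost Mmp9 its call in nucleus pulposus against connective tissue (-0.42). Ratios of protease to TIMP UMIs moved by more than 1 SD in 9 of 88 alternatives, and shares of cells with a UMI in 41 of 60 on thinning. Depth limits library 3, with 25 nucleus pulposus-like cells.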

Other observations

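Single cells held large parts of some class levels. In library 2, 167 Mmp13 UMIs lay in 1 of 38 basophil or mast cell-like cells, where the other 37 had 0, and 111 of 120 endothelial Mmp13 UMIs lay in 1 cell. In neutrophils with secondary granules of library 3, 1 cell held 142 of 153 Mmp13 UMIs. Each of these 3 class levels of Mmp13 thus rests on 1 cell.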
